A study of Mus musculus with 4 samples.

Results

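The enzymes that turn squalene into cholesterol were examined as 8 genes, Sqle, Lss, Cyp51, Tm7sf2, Nsdhl, Hsd17b7, Ebp and Dhcr7. All probes other than controls that carry one of these names were taken, which gave 12 of the 55681 probes on the array. All 8 genes were measured, among 24637 genes and named features. Primary hepatocytes of bl6 mice, the main metabolic cells of the liver, had received 1 µM GW3965 (2 arrays) or DMSO, the vehicle (2 arrays). GW3965 is a synthetic compound that activates liver X receptors (LXR), which are oxysterol sensors in the nucleus, and the treated samples' label words it as "LXR against GW3965". Both groups were grown with 10% fetal bovine serum, then kept overnight in 0.5% serum with 5 µM simvastatin and 100 µM mevalonic acid. The series description places the statin and mevalonic acid ahead of the overnight treatment, while the treatment protocol lists them together with it. The labels give neither the age or sex of the mice nor whether replicates a and b are separate animals or cultures. The p-values therefore measure only the spread between these arrays, which may be technical.

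Cholesterol is built from squalene in the endoplasmic reticulum. Squalene is oxidised and closed into lanosterol, which then loses methyl groups, has double bonds moved or reduced, and becomes cholesterol. Transcription of this pathway is driven mainly by SREBP2, a membrane-bound factor released when sterols in the endoplasmic reticulum are low. Statins lower sterol synthesis upstream of squalene, and mevalonic acid is an early intermediate of the pathway. Some sterols made late in the pathway, such as desmosterol, are themselves LXR ligands. The comparison asks whether transcripts of this segment differed in hepatocytes given an LXR agonist while both groups had the statin and mevalonic acid.

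The array reads each gene through 60-base probes, and 3 of the 8 genes had more than 1 probe. The probes below are shown because they read different stretches of the same gene and give separate values for it. Tm7sf2, Nsdhl and Hsd17b7 each had a probe with no stop codon in 2 of its 3 reading frames, printed whole. The other probe of Nsdhl and another of Hsd17b7 held the letters AATAAA, the usual polyadenylation signal of transcripts, which is in capitals within a stretch of 30 bases. The Hsd17b7 stretch holds it in 3 overlapping copies, all in capitals. The single probes of Sqle and Ebp are shown because they held AATAAA too. All coordinates of probes are on mm9.
Tm7sf2 probe A_55_P2171406, chr19:6063541-6063600, minus strand: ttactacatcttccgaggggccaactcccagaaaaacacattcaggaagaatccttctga
Nsdhl probe A_66_P137462, chrX:70202803-70202862, plus strand: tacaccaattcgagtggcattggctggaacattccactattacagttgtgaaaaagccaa
Nsdhl probe A_55_P1976395, chrX:70203823-70203852, plus strand: ttgggggaaaataacaaagaAATAAAagcc
Hsd17b7 probe A_55_P1997936, chr1:171883182-171883241, minus strand: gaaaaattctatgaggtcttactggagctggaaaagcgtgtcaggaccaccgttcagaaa
Hsd17b7 probe A_55_P1964598, chr1:171885643-171885672, minus strand: gtggaggcttttAATAAATAAATAAAgtcg
Sqle probe A_55_P1975185, chr15:59162713-59162742, plus strand: ttgggacaagccAATAAAatgaagagtgaa
Ebp probe A_51_P429682, chrX:7762463-7762492, minus strand: ttcccaaaccaggaAATAAAatgtctttta

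The other probes lie on chromosome 10 from 76015992 to 76016051 for Lss, chromosome 5 from 4081471 to 4081530 for Cyp51 and chromosome 7 from 151033874 to 151033933 for Dhcr7. The second Tm7sf2 probe lies on chromosome 19 from 6062882 to 6062941 and the remaining Hsd17b7 probe on chromosome 1 from 171880203 to 171880262. Coding limits of these transcripts were not used here, so exon and UTR boundaries are not given. In the RefSeq gene table (GRCm38.p6) the locus of Lss overlaps the long noncoding RNA 4930483K19Rik and that of Tm7sf2 overlaps Vps51.

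All 48 readings of the 12 probes, over 4 arrays, were well above background, with processed signals from 106.5 to 20380. The scanner software's own error estimate was 10% to 10.35% of the signal for each reading. Levels below are log2 signal minus the array's own 75th percentile, and can be set against another array but not against another probe. Over the 4 arrays, 62.5% to 69.1% of probes were well above background, and all arrays sat on 1 slide read in 1 scan. Of 10 hepatocyte markers, such as Alb, Ttr and Hnf4a, 10 were well above background on every array. So were 5 of 5 endothelial, 5 of 5 stellate cell and fibroblast, and 6 of 7 macrophage and leukocyte markers. Detection alone therefore cannot tell which cell types made up the cultures. The summed linear level of the hepatocyte markers ran from 1848 to 3222 on GW3965 arrays and from 2251 to 3036 on DMSO arrays. Markers of macrophages and leukocytes were measured for 7 of 7, with sums of 56.9 to 109.6 with GW3965 and 50.04 to 99.37 with DMSO. Clec4f, a Kupffer cell marker, was not well above background on 1 of the DMSO arrays. In RNA from a whole culture, fewer cells of a type and less RNA per cell cannot be told apart.

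Sqle, squalene epoxidase, adds the oxygen that commits squalene to sterols and is a rate-limiting step of this segment. It stood at 4.69 and 4.92 on GW3965 replicates a and b, and at 4.64 and 5.00 on DMSO replicates a and b. Both GW3965 arrays lay between the DMSO arrays. The means were 4.81 ± 0.16 with GW3965 and 4.82 ± 0.25 with DMSO (SD, n = 2 each). The log2 difference was -0.02 ± 0.23 (SE), a ratio of 0.987 with a 95% interval from 0.655 to 1.489.

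Lss, lanosterol synthase, folds the epoxide into lanosterol, the first sterol of the pathway. It stood at 2.34 and 2.63 on GW3965 replicates a and b, and at 2.27 and 2.33 on DMSO replicates a and b. The groups did not overlap, with GW3965 higher, and replicate a of GW3965 was just above replicate b of DMSO. Lss had a log2 difference of 0.19 ± 0.20 (SE), which is 1.139-fold with an interval from 0.787 to 1.648.

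Cyp51, lanosterol demethylase, is the cytochrome P450 that removes the first of the methyl groups of lanosterol. It stood at 1.355 and 1.032 on GW3965 replicates a and b, and at 1.397 and 0.801 on DMSO replicates a and b. The groups overlapped, since the DMSO arrays held both the highest and the lowest value. For Cyp51 the log2 difference came to 0.09 ± 0.28 (SE), which is 1.067-fold with an interval from 0.637 to 1.788.

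Tm7sf2 encodes a sterol reductase that acts on the double bond left by Cyp51, a reaction that the lamin B receptor Lbr also carries out. On its brighter probe it stood at 4.53 and 4.34 on GW3965 replicates a and b, and at 4.54 and 4.52 on DMSO replicates a and b. GW3965 replicate b was the low array, and the other 3 lay close together. Its log2 difference was -0.09 ± 0.19 (SE), a ratio of 0.939 with an interval from 0.666 to 1.325.

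Nsdhl and Hsd17b7 are 2 enzymes of the complex that removes the last pair of methyl groups, a sterol decarboxylase and a ketosteroid reductase. Nsdhl stood at 2.38 and 2.04 on GW3965 replicates a and b, and at 2.38 and 1.57 on DMSO replicates a and b. DMSO replicate b was the low array, and the replicates labelled a were nearly equal between groups. Nsdhl had a log2 difference of 0.24 ± 0.34 (SE), which is 1.179-fold with an interval from 0.639 to 2.175. Hsd17b7 was the least variable of the 8 between replicates, at 2.38 and 2.42 on GW3965 replicates a and b and 2.47 and 2.48 on DMSO replicates a and b. Both GW3965 arrays lay below both DMSO arrays. Hsd17b7 had a log2 difference of -0.08 ± 0.18 (SE), a ratio of 0.948 with an interval from 0.684 to 1.313. The model's SE for Hsd17b7 is wider than its own replicates alone would give, because limma shares the estimate of spread among genes.

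Ebp, the emopamil binding protein, is a sterol isomerase that shifts a double bond in the ring. It stood at 5.22 and 4.51 on GW3965 replicates a and b, and at 5.14 and 4.86 on DMSO replicates a and b. The GW3965 arrays held both the highest and the lowest value. Its log2 difference was -0.14 ± 0.31 (SE), a ratio of 0.911 with an interval from 0.523 to 1.586. Dhcr7, which reduces the last ring double bond and whose human counterpart is mutated in Smith-Lemli-Opitz syndrome, stood at 1.73 and 1.27 on GW3965 replicates a and b. With DMSO its levels were 1.47 in replicate a and 0.78 in replicate b. Each GW3965 array was above the DMSO array of the same letter, but GW3965 replicate b lay below DMSO replicate a. The log2 difference was 0.38 ± 0.32 (SE), which is 1.301-fold with an interval from 0.723 to 2.341.

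**Figure D1:**
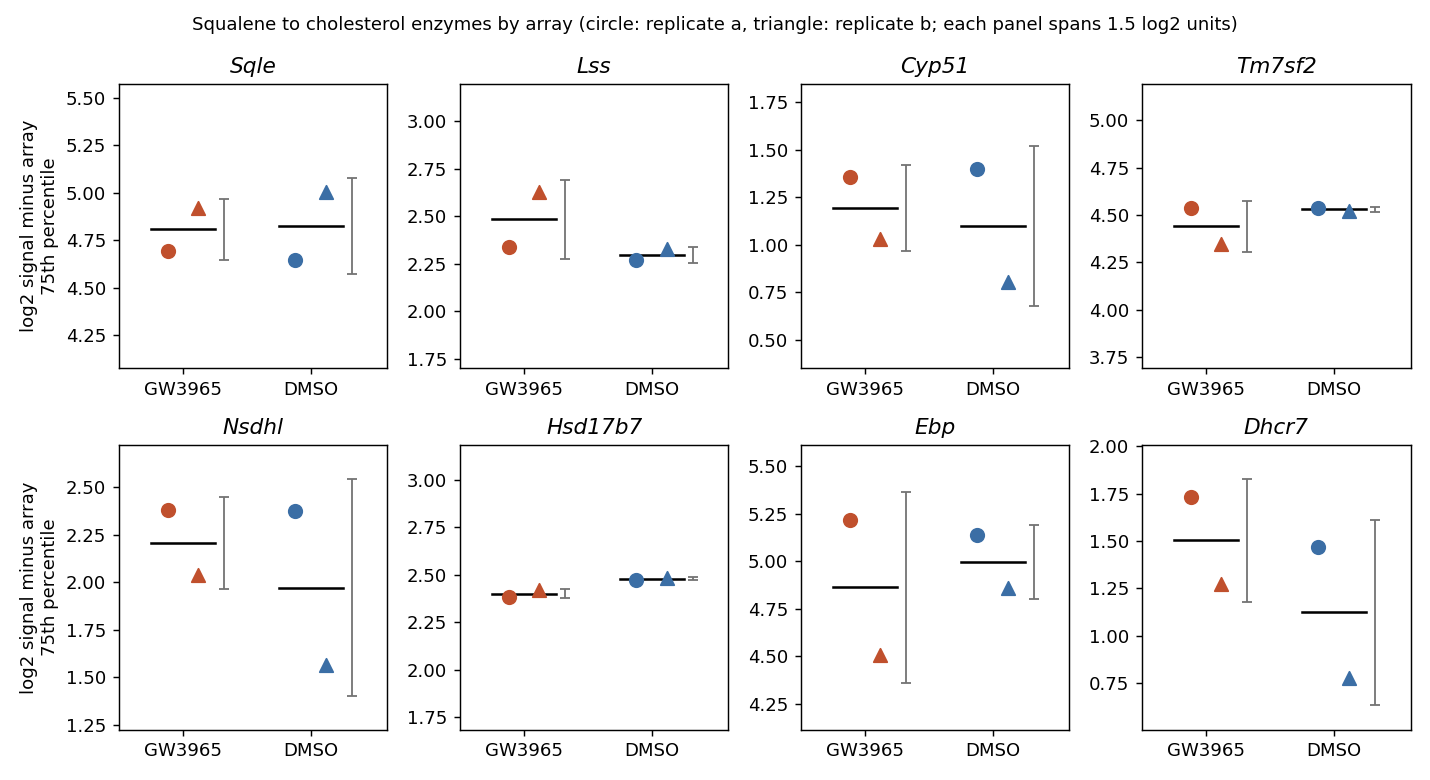
Level of each enzyme gene as log2 signal minus the array's 75th percentile (vertical axis, 1.5 log2 units in every panel), with GW3965 arrays left and DMSO arrays right. Circles are replicate a, triangles replicate b, black lines group means and grey bars ± SD (n = 2). Lss arrays with GW3965 sit above those with DMSO, Hsd17b7 arrays sit below, and the groups overlap for the other 6 genes.

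Of these 8 genes, 0 passed limma at an adjusted p under 0.05, each with an adjusted p of 1, and 0 had an unadjusted p under 0.05. Over all 24637 genes, 0% passed after Benjamini-Hochberg adjustment and 0.824% had an unadjusted p under 0.05. The lowest unadjusted p of the 8 was 0.296, for Dhcr7 (limma). With 2 arrays a group, the smallest two-sided p of an exact permutation test is 0.333. Means were higher with GW3965 for 4 genes and lower for 4, against 48.5% of all genes with a higher mean. The groups did not overlap for 2 of the 8, Lss and Hsd17b7, while 16.0% of all genes did not overlap. Lss was the 1 gene with GW3965 higher, against 9.41% of all genes, and Hsd17b7 the 1 with GW3965 lower, against 6.55%. The median log2 difference of the 8 was 0.04, beside -0.01 over all genes. The largest of the 8 differences in size was that of Dhcr7, larger than 94.25% of all genes, and the smallest that of Sqle, larger than 9.51%.

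The widths of the intervals set what 2 arrays a group can show in this fit, which leaves out the replicate letter. The upper limits ran from a log2 difference of 0.39 for Hsd17b7 to 1.23 for Dhcr7, and the lower limits from -0.94 for Ebp to -0.35 for Lss. Every interval contained 0, so that neither a modest increase nor a modest decrease was detectable for any of the 8 in this fit. A fit that also took in the replicate letter gave a smaller SE for each of the 8. These ran from 0.13 for Hsd17b7 to 0.16 for Nsdhl, against 0.18 and 0.34 without the letter. The labels do not say that the letters pair samples, so the intervals given here are those without it. On the same arrays the sterol exporter Abca1, a direct LXR target, had a log2 difference of 2.58 ± 0.39 (SE) with an interval from 1.56 to 3.59. The lower limit for Abca1 lay above the upper limit of each of the 8 enzymes. Abcg1, a related sterol transporter, differed by 1.98 ± 0.29, with a lower limit of 1.21, which lies within the interval of Dhcr7. The lower limits of the other 4 LXR targets on the list were 0.73 for Srebf1, 0.51 for Lpcat3, 0.27 for Scd1 and 0.23 for Mylip. Those of Scd1 and Mylip lay within the intervals of all 8 enzymes, and those of Srebf1 and Lpcat3 within the intervals of several. Abca1 and Abcg1 also had an adjusted p of 1 over all genes (limma).

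**Figure D2:**
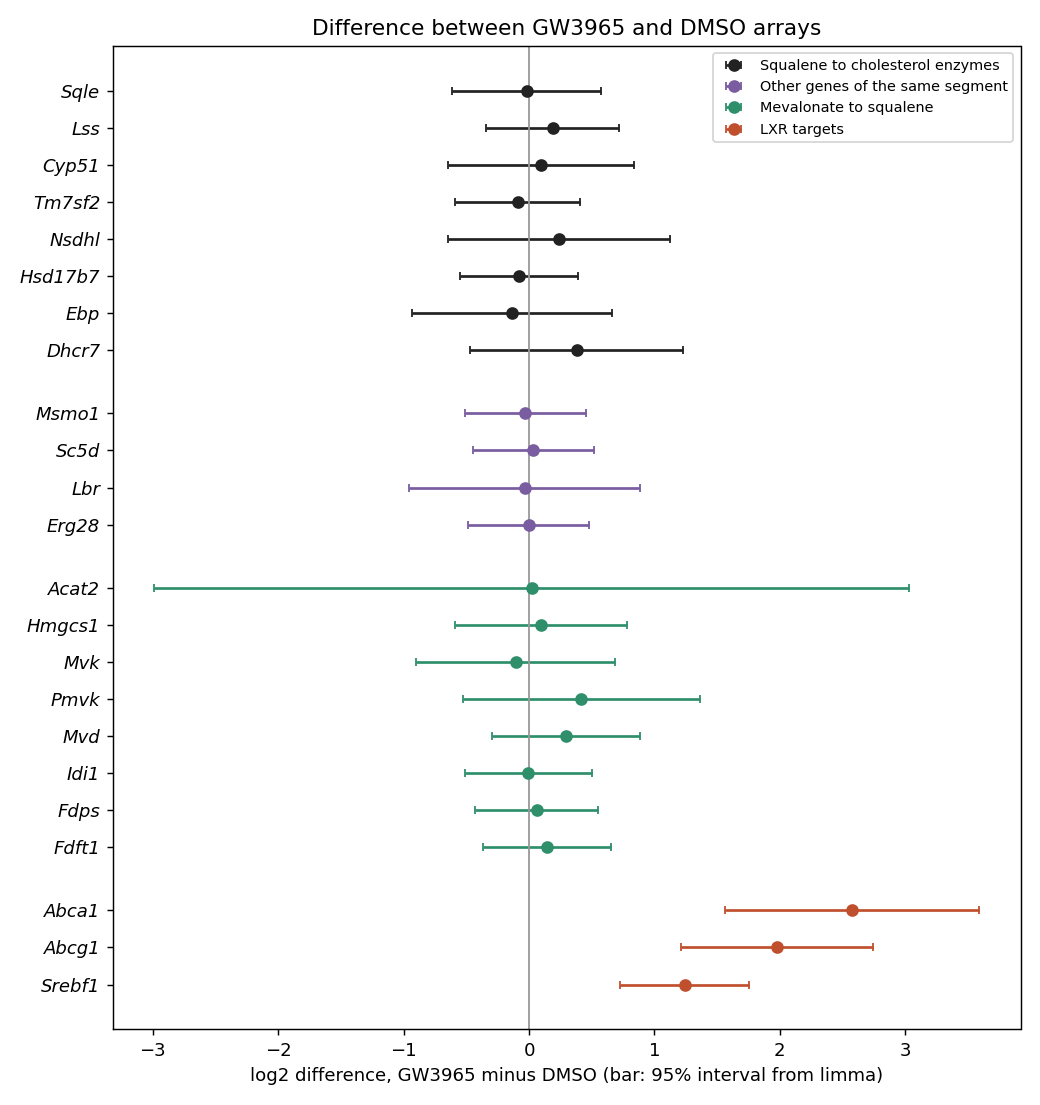
Log2 difference of GW3965 minus DMSO (horizontal axis) with 95% intervals from limma for the 8 enzymes, 4 other genes of the same segment, 8 genes from mevalonate to squalene, and 3 LXR targets. The intervals of the cholesterol synthesis genes shown all contain 0, while those of Abca1, Abcg1 and Srebf1 lie above 0.

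Probes of 1 gene gave differences of opposite sign in all 3 genes that had several, each difference smaller than its SE. For Tm7sf2, the probe with the whole sequence above stood at 2.43 and 2.32 on GW3965 replicates a and b and at 2.25 and 2.24 on DMSO replicates a and b. On that probe the groups did not overlap, GW3965 being higher, with a log2 difference of 0.14 ± 0.19 (SE), against -0.09 on the brighter probe. The mean of the 2 probes differed by 0.02, so the sign for Tm7sf2 depends on the probe rule.

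The AATAAA probe of Nsdhl stood at -0.56 and -1.08 on GW3965 replicates a and b and at -0.46 and -1.17 on DMSO replicates a and b. Its log2 difference was -0.01 ± 0.34 (SE), beside 0.24 ± 0.34 on the brighter one. Replicate b was the lower one in both groups on either probe. For Hsd17b7, the second probe stood at 1.499 and 1.367 with GW3965 and at 1.516 and 1.331 with DMSO, a log2 difference of 0.01 ± 0.20. The AATAAA probe of Hsd17b7 is matched to an Ensembl transcript alone and was the dimmest of the 12. It stood at -1.98 and -2.66 with GW3965 and at -2.17 and -2.42 with DMSO, a log2 difference of -0.02 ± 0.30. The groups overlapped on both of these probes, so the gap between groups on the brightest Hsd17b7 probe did not recur on the other 2. With each of 35479 probes tested on its own, 0 of the 12 passed limma after adjustment, and each had an adjusted p of 1.

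Replicates a and b differed more than the groups did for most of the 8 genes. From replicate a to b the level was higher in both groups for Sqle, Lss and Hsd17b7, and lower in both groups for Cyp51, Tm7sf2, Nsdhl, Ebp and Dhcr7. For Nsdhl the gap of b minus a was -0.34 with GW3965 and -0.81 with DMSO, for Ebp -0.71 and -0.28, for Dhcr7 -0.46 and -0.69, and for Cyp51 -0.32 and -0.60. The treatment difference was smaller than both of these gaps for 5 of the 8 (Sqle, Cyp51, Nsdhl, Ebp and Dhcr7). It exceeded both for Hsd17b7 alone. Over all genes it was below both gaps for 65.9% and above both for 9.41%. The gaps had the same sign in both groups for 8 of the 8, and for 75.1% of all genes.

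Cell type markers differed with the replicate letter as well, in both directions, and some lists held markers of either direction. Of the hepatocyte markers, in 10 of 10 the level was lower on replicate b than on replicate a in both groups, with a median gap of -0.959 with GW3965 and -1.004 with DMSO. The median gap of the 8 enzymes was -0.26 with GW3965 and -0.15 with DMSO. Markers of macrophages and leukocytes were lower on replicate b in 7 of 7 in both groups, with medians of -0.765 with GW3965 and -0.757 with DMSO. Over all genes, 31.8% were lower and 43.4% higher on replicate b in both groups. Of the endothelial markers, 3 of 5 (Pecam1, Cdh5 and Stab2) were higher on replicate b in both groups. Their list had median gaps of 0.56 with GW3965 and 0.28 with DMSO. Kdr was lower on replicate b, by -0.41 with GW3965 and -0.34 with DMSO, and Tek differed by 0.31 and -0.17. Of the stellate cell and fibroblast markers, 3 of 5 (Col1a1, Col3a1 and Des) were higher on replicate b in both groups. Their list had median gaps of 0.29 with GW3965 and 0.41 with DMSO. Dcn went the other way, by -1.38 and -1.18, and Pdgfrb differed by -0.13 and 0.03. The summed linear level of this list was lower on replicate b, at 36.14 against 78.14 with GW3965 and 38.61 against 74.19 with DMSO. Of the cholangiocyte markers, 3 of 4 measured (Krt19, Epcam and Spp1) were higher on replicate b in both groups. Their list had median gaps of 0.88 with GW3965 and 0.67 with DMSO. Sox9 was lower on replicate b, by -0.40 and -0.60. The part of cell composition or cell state in the gaps of the enzymes was not tested.

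**Figure D3:**
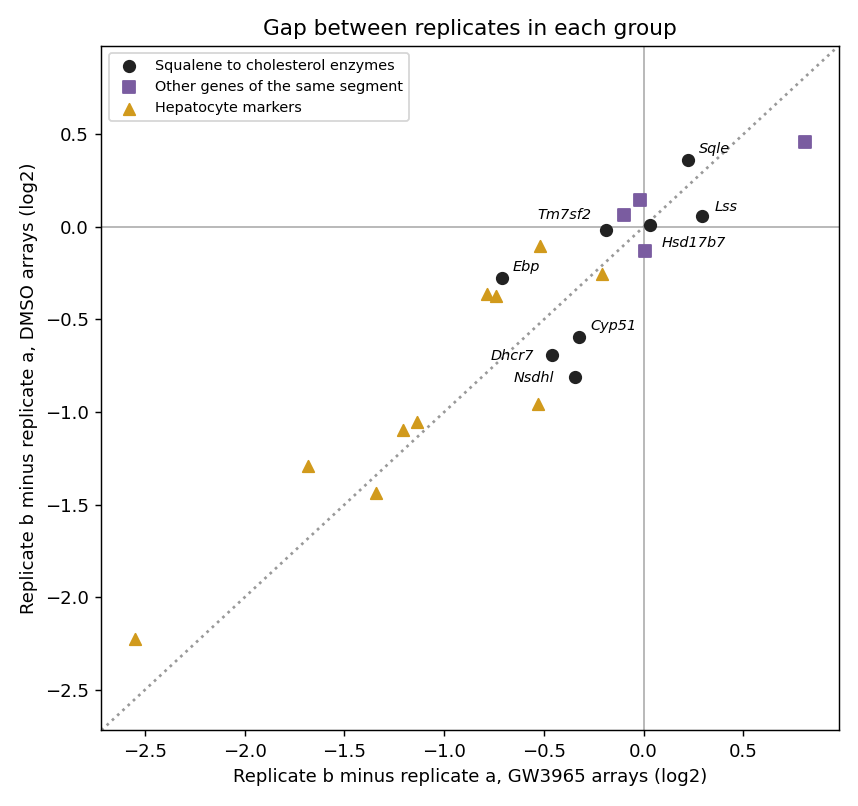
Gap between replicates, as log2 level of replicate b minus replicate a, on GW3965 arrays (horizontal axis) and DMSO arrays (vertical axis), with a dotted line of equality. The 8 enzymes lie in the quadrants of equal sign, 3 above 0 and 5 below, and the 10 hepatocyte markers all lie below 0 on both axes.

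Comparing arrays of the same letter, Dhcr7 was higher with GW3965 by 0.26 in replicate a and 0.50 in replicate b. Lss was higher by 0.07 and 0.30. Nsdhl differed by 0.004 in replicate a and by 0.47 in replicate b, so that its mean difference came from replicate b. Hsd17b7 differed by -0.09 and -0.07. Tm7sf2 differed by -0.005 and -0.18. For Sqle (0.05 and -0.09), Cyp51 (-0.04 and 0.23) and Ebp (0.08 and -0.35) the signs were opposite in a and b. Opposite signs were found for 37.5% of the 8 genes and 50.1% of all genes.

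Other genes of the segment gave differences near 0. All 4 on the list were measured, and 0 of them passed in either direction (limma). Msmo1, the sterol methyl oxidase that works with Nsdhl and Hsd17b7, differed by -0.03 ± 0.18 (SE), and Erg28, known from yeast as the scaffold of that complex, by -0.004 ± 0.18. Sc5d, the desaturase that acts between Ebp and Dhcr7, differed by 0.04 ± 0.19. Lbr, the second sterol reductase beside Tm7sf2, differed by -0.03 ± 0.35. The groups overlapped in all 4, while 16.0% of all genes did not overlap. The median difference of the 4 was -0.02.

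Upstream, 8 of 8 genes from mevalonate synthesis to squalene were measured, and 0 of them passed in either direction (limma). Means were higher with GW3965 for 6 of them, and the median log2 difference was 0.08. The phosphomevalonate kinase Pmvk differed by 0.42 ± 0.36 (SE) and the decarboxylase Mvd by 0.29 ± 0.23. Mvd was the 1 gene of this list whose groups did not overlap, with GW3965 higher, against 9.41% of all genes. Fdft1, which makes the squalene used by Sqle, stood at 4.07 and 4.25 on GW3965 replicates a and b, and at 3.94 and 4.09 on DMSO replicates a and b. Its log2 difference was 0.14 ± 0.20. The other differences were 0.10 ± 0.26 for Hmgcs1, 0.06 ± 0.19 for Fdps, 0.02 ± 1.15 for Acat2, -0.005 ± 0.19 for Idi1 and -0.11 ± 0.30 for Mvk. Acat2, with its wide error, stood at 2.57 and 0.07 on GW3965 replicates a and b, and at 2.52 and 0.08 on DMSO replicates a and b.

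Among the genes that control SREBP, 7 of 7 were measured and 0 passed after adjustment. Srebf2, which encodes SREBP2, stood at 1.65 and 2.21 on GW3965 replicates a and b, and at 1.42 and 1.99 on DMSO replicates a and b, a log2 difference of 0.23 ± 0.32 (SE). Insig1, which retains SREBP in the endoplasmic reticulum, differed by 0.54 ± 0.25. Srebf1, an LXR target that serves mainly fatty acid synthesis, differed by 1.24 ± 0.20. In this list the groups did not overlap for 2 genes with GW3965 higher, Insig1 and Srebf1, against 9.41% of all genes. They did not overlap for 1 gene with GW3965 lower, against 6.55%.

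Genes whose 4 values followed the mean profile of the 8 enzymes most closely were Rap2b, Slc27a4, Arv1, Adamts14 and Ass1. Each gene was centred on its own mean, and the root mean square distance from that profile over 4 arrays was 0.0096 for Rap2b, 0.0107 for Slc27a4, 0.0124 for Arv1 and 0.0138 for Adamts14 and Ass1. This likeness is weak as a description, because 1799 of 15209 named genes lay within 0.1 of the profile. The enzymes themselves lay farther from their own mean, from 0.114 for Tm7sf2 to 0.262 for Sqle, so they did not share 1 pattern over the arrays. The profile was shallow, with a root mean square of 0.114, which is the distance of a gene with equal values on all arrays. The median distance over the named genes searched was 0.223.

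RefSeq promoter windows (GRCm38.p6, 250 bases before to 50 after each transcription start) were found for 7 of the 8 genes, in 9 windows, 3 of them of Dhcr7. They were searched on both strands for letters known from sterol-regulated promoters. CCAAT, bound by NF-Y, a usual partner of SREBP, was present in at least 1 window of all 7 genes, in 7 of 9 windows against 37.4% of all 32851 windows. GGGCGG, bound by Sp1, was present in 8 of 9 windows against 35.7%. TCACNCCAC, a core of the sterol regulatory element, was in 0 of 9 windows against 1.24%, and the LXR direct repeat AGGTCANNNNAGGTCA in 0 of 9 against 0.0152%. A missing match says only that these exact letters are not in these windows. Matches of different motifs overlapped 0 times.

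The CCAAT stretch nearest upstream of the start is shown for Lss and Hsd17b7, where the groups did not overlap, and for Dhcr7 and Ebp, which had the highest and the lowest difference. Each window is 60 bases, written in the direction of the gene, with the box in capitals, which reads ATTGG where it lies on the opposite strand. It begins 62 bases before the start in Lss, 12 in Hsd17b7, 49 in Dhcr7 at 1 of its 3 starts in the table, and 55 in Ebp.
Lss, chr10:76531516-76531575, plus strand: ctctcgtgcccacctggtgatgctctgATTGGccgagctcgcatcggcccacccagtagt
Hsd17b7, chr1:169969206-169969265, minus strand: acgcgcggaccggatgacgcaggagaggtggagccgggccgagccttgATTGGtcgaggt
Dhcr7, chr7:143830138-143830197, plus strand: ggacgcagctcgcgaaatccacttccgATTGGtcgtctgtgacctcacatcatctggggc
Ebp, chrX:8193535-8193594, minus strand: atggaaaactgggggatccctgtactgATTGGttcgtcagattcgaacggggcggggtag

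All 4 windows carry the box on the opposite strand, in genes whose differences ran in both directions. With each array left out in turn, Lss stayed between 0.04 and 0.33, Hsd17b7 between -0.09 and -0.06 and Dhcr7 between 0.04 and 0.72. The groups of Lss and Hsd17b7 did not overlap, so for them the sign could not change when an array was left out. Ebp reached -0.49 when GW3965 replicate a was left out and 0.22 when replicate b was. Nsdhl ran from -0.17 without DMSO replicate b to 0.64 without DMSO replicate a.

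**Figure D4:**
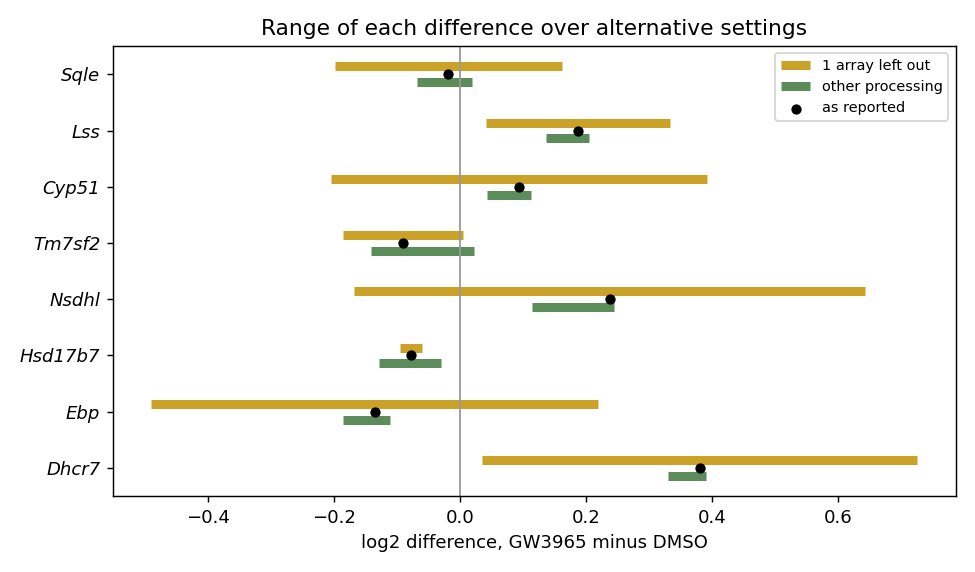
Range of each log2 difference, GW3965 minus DMSO (horizontal axis), with the reported value as a point. The upper bar of each gene is with 1 array left out, the lower bar under 10 other processing settings. Of these settings only quantile normalization, median centring, normexp background and the mean of probes changed any difference. The others gave the reported value for each of the genes. The bars of Lss and Dhcr7 stay above 0 and those of Hsd17b7 below 0, while at least 1 bar crosses 0 for the other 5 genes. The upper bars of Lss and Hsd17b7 could not cross 0, since their groups did not overlap.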

How the data were processed

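The deposited values are the processed signal intensity of each spot on 1-colour Agilent arrays (design 028005), corrected for background and trends within the array by Agilent Feature Extraction 10.7.3.1, per the file headers. Version 11.5.1.11 is given in the submitters' processing notes. In the authors' value table the intensity of all 62976 features was the same. Here, outlier spots were dropped, spots of a probe averaged as log2 signal, and each array's 75th percentile subtracted. Probes were kept where both arrays of at least 1 group read well above background, and the probe with the highest mean stood for a gene. RefSeq accessions named 26762 probes, and 28919 kept the file's name. Groups were compared with limma 3.58.1 (R 4.3.3, package data.table, version 1.17.8) over all genes, two-sided, with 2 residual and 2.72 prior degrees of freedom, with Benjamini-Hochberg adjustment. Sequences were read with Python 3.11.15 and pandas 2.3.3, and figures drawn with matplotlib 3.10.9. The number of arrays limits the precision.

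The enzymes and the other gene lists were chosen with earlier results of these data known. The genes named are the enzymes, 12 other genes of cholesterol synthesis, Abca1, Abcg1, Srebf1, Insig1, Srebf2, and the 5 named genes nearest the enzymes' mean profile. The other LXR targets of the list and a few example markers of each cell type were named after their values were seen. Some results of these lists are not reported here. Endothelial, stellate and cholangiocyte markers were measured for 5 of 5, 5 of 5 and 4 of 5, with median log2 differences of 0.12, 0.14 and -0.23.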

Additional observations from a re-analysis of the deposited data

How the results depend on the processing

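Settings tried were normexp with an offset of 50, quantile normalization, median centring, averaging a gene's probes, the value table, keeping every probe, requiring signal on all 4 arrays, a trend or a robust prior, a threshold of 0.1, each array left out, and the replicate block. Under each of them 0 of the 8 enzymes and 0 of their 12 probes (tested with and without the block) passed after adjustment. With quantile normalization Sqle differed by 0.0197, and with the mean of probes Tm7sf2 by 0.0224. With arrays left out in turn, Sqle ran from -0.198 to 0.161, Cyp51 from -0.204 to 0.392, Tm7sf2 from -0.185 to 0.0042, Nsdhl from -0.168 to 0.642 and Ebp from -0.489 to 0.219. The median of the 8 ran from -0.0857 (without DMSO replicate b) to 0.130 (without GW3965 replicate b), that of the 12 other synthesis genes from -0.0158 to 0.0928, and the count of all genes called from 0 to 1, a probe without a gene name (A_66_P114445) called without DMSO replicate b and named after its value was seen. Centring on the median gave -0.0126 for the 8 and -0.0566 for all genes. A group left with 1 array was assumed to vary like the other group. The cause of these changes was not tested.

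With the replicate block, 15 genes were called (10 higher, 5 lower), of which 0 were among the enzymes. The lowest adjusted p of an enzyme was then 0.859, for Dhcr7, at an unadjusted p of 0.0324 (limma). The gaps between a and b correlated at 0.72 across 24637 genes, which are not independent replicates, but the labels do not say that the letters pair samples. Genes at an unadjusted p under 0.05 numbered 203 as reported, 56 with normexp, 536 with no filter, 94 with the filter on all arrays, 115 with a trend, 416 without DMSO replicate b and 1333 with the block.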
